A study of Mus musculus with 16 samples.

Results

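Non-cycling tumor-associated macrophages (TAMs) of the 2208L mammary tumor were followed across 4 treatments in droplet single-cell RNA sequencing, where each transcript molecule is counted as a unique molecular identifier (UMI). The cells were chosen from their own measured values. A cell with 201 to 5999 detected genes and at most 10% mitochondrial UMIs was a member if it held at least 20 UMIs of C1qa, C1qb and C1qc together, at least 1 UMI of Csf1r, at most 4 UMIs of Krt8, Krt18 and Epcam together and at most 1 UMI of Mki67 and Top2a together. The rule took 5952 of the 13830 cells that passed the gene and mitochondrial limits, out of 14506 barcodes in the 4 tumor libraries. The series holds 16 libraries, and the 12 from bone marrow were not used here.

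2208L is a transplantable Trp53-null line of triple-negative breast cancer grown in the mammary fat pad of wild-type BALB/c mice, and it is rich in infiltrating neutrophils. IACS-70654 is an oral inhibitor of the bromodomain of CBP and P300, the paired acetyltransferases that acetylate histone H3 at enhancers. Tumor-bearing mice received vehicle, IACS-70654, the immune checkpoint antibody anti-PD-1, or IACS-70654 together with anti-PD-1 (combination), and tumors were taken at day 7. Each condition is 1 library of enzyme-digested tumor cells pooled from 3 mice, so differences between libraries have no replicate check. Every interval given here is a 95% exact interval that covers counting error only, not the spread between mice or between library preparations.

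Macrophages engulf dead cells and debris, present peptides on MHC class II molecules to CD4+ T cells, and secrete chemokines that draw other leukocytes into the tumor. Their complement C1q genes set them apart from blood monocytes and neutrophils, and the receptor Csf1r is shared with monocytes. In the mammary gland, long-lived resident macrophages express genes such as Folr2 and Cbr2, whereas macrophages that arise from blood monocytes pass through a stage with Ccr2 and high MHC class II.

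Members numbered 584 in the vehicle library, 2540 with IACS-70654, 428 with anti-PD-1 and 2400 with the combination. They made up 29.6% (27.6 to 31.7) of kept cells with vehicle, 53.6% (52.2 to 55.0) with IACS-70654, 20.8% (19.1 to 22.7) with anti-PD-1 and 47.4% (46.0 to 48.8) with the combination. Both libraries from mice given IACS-70654 thus held larger member shares than both libraries without it. A share can also move because other cells become fewer or more numerous, and the part of this in the member share was not tested. Neutrophils were 12.3%, 2.57%, 15.1% and 2.37% of kept cells in the same order, and monocytes were 2.94%, 0.422%, 3.75% and 1.01%. Macrophages that missed the rule only through 2 or more UMIs of Mki67 and Top2a were 2.74%, 2.15%, 3.07% and 1.84% of kept cells. No barcode was shared between any of the 4 libraries. The paper tagged its cell suspensions and demultiplexed the samples, and samples split from 1 pool cannot share a barcode. The absence therefore does not show that the libraries were prepared separately.

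**Figure D1:**
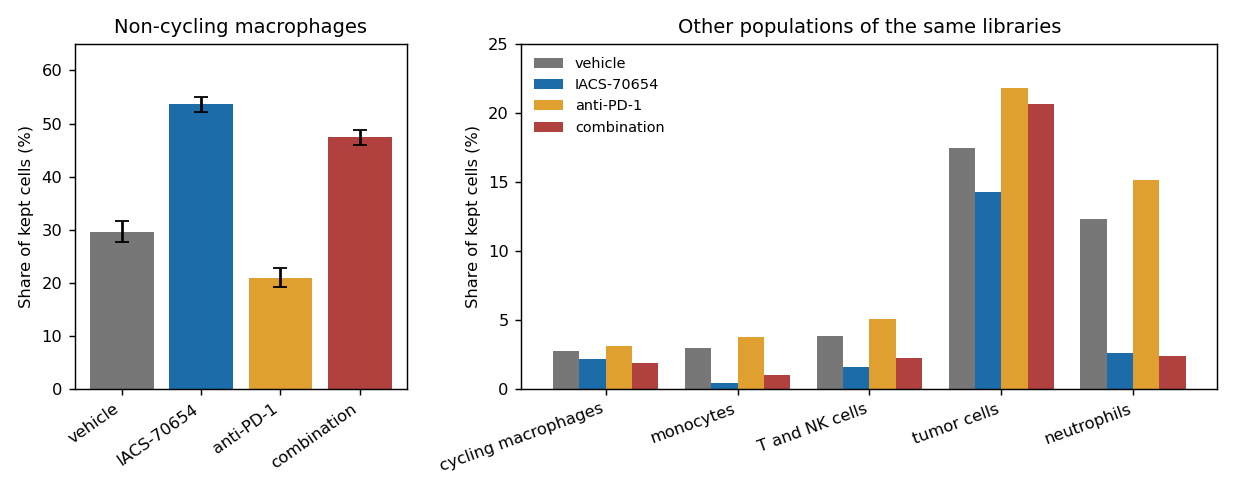
Left, percent of kept cells that were non-cycling macrophages in each library (bars, with 95% exact binomial intervals for counting error); right, percent of kept cells that were cycling macrophages, monocytes, T and NK cells, tumor cells or neutrophils. The member share was 53.6% with IACS-70654 and 47.4% with the combination against 29.6% with vehicle and 20.8% with anti-PD-1, and the neutrophil share was 2.57% and 2.37% against 12.3% and 15.1%.

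The median member held 6640.5 UMIs with vehicle, 6400.5 with IACS-70654, 6324 with anti-PD-1 and 6163.5 with the combination. Summed over members, the libraries held 4423449, 17674718, 2860750 and 16023892 UMIs, so values from the IACS-70654 and combination libraries carry the smaller counting error. The median number of genes per member was 2250.5, 2223, 2231.5 and 2169, and the median mitochondrial share was 1.72%, 1.51%, 1.68% and 1.45%. C1q UMIs, which chose the cells, had a median of 135, 163, 123 and 150 per member. The threshold of 20 cut few cells: 11, 24, 9 and 35 members held 20 to 24 C1q UMIs, and 5, 30, 9 and 33 cells with 15 to 19 met the other 3 conditions. The limit on Mki67 and Top2a had more cells beside it, with 62, 170, 43 and 162 members at 1 UMI and 16, 27, 15 and 24 cells outside at 2. At the condition on Csf1r, 124, 474, 107 and 403 members held exactly 1 UMI, and 71, 314, 48 and 268 cells with enough C1q held none. At the limit on keratins and Epcam, 1, 4, 2 and 7 members held 4 UMIs and 0, 5, 3 and 5 otherwise matching cells held 5.

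Levels are given in CPM, the usual scaling of a gene's UMIs to the total UMIs of all members of a library, multiplied by 1e+06. A CPM does not separate a gene that is lower in every member from a gene that is lost in some members, and for that question cells were thinned to 2000 UMIs each. The macrophage label was checked on genes the rule did not use. Cd14, a co-receptor for bacterial lipopolysaccharide, stood at 839 CPM with vehicle, 887 with IACS-70654, 881 with anti-PD-1 and 963 with the combination. Fcgr1, the high-affinity IgG receptor, stood at 359, 359, 340 and 387 CPM. Both were detected at similar levels in all 4 libraries. Adgre1, which encodes the F4/80 antigen used to sort mouse macrophages, was at 294, 166, 276 and 174 CPM, and Cd68, a lysosomal macrophage antigen, at 407, 227, 416 and 225 CPM. These 2 defining markers were present in every library but lower in both libraries with IACS-70654.

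Markers of other cells were low but not absent. The summed level of 12 T and NK cell markers was 48.2, 36.5, 28.0 and 33.0 CPM, that of 10 dendritic cell markers 14.2, 11.4, 12.6 and 10.9 CPM, and that of 7 red cell and mast cell markers 2.49, 3.96, 3.15 and 3.06 CPM; Cpa3 of the last list and Krt5 of the tumor cell list were at 0 in every library. The 10 tumor cell markers summed to 212, 198, 212 and 211 CPM. Neutrophil markers, 10 genes led by S100a8 and S100a9, summed to 301, 228, 675 and 232 CPM. The 10 fibroblast and endothelial markers summed to 105, 39.8, 100 and 42.8 CPM, and the 7 B cell markers to 364, 109, 102 and 103 CPM, of which a single vehicle cell carried most of Igkc. The part these other markers play in the differences between libraries was not tested.

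The study asked how transcription in tumor macrophages changes with IACS-70654. Here the effect was read in 2 comparisons that share no library, IACS-70654 against vehicle and the combination against anti-PD-1. A gene was tested if its mean over the 4 libraries reached 10 CPM (7526 genes), and it was called if the ratio was at least 1.5-fold with a counting interval off 1. The interval was not corrected for the number of genes tested. IACS-70654 against vehicle called 228 genes higher (3.03% of genes tested) and 332 lower (4.41%). The combination against anti-PD-1 called 291 higher (3.87%) and 418 lower (5.55%). The median log2 ratio over all tested genes was 0.03 in the former and -0.02 in the latter comparison, and CPM scales each library to its own total. The rule on cells used none of these genes except its own, but a gene correlated with C1q or Mki67 across cells is not free of it.

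The calls of both comparisons overlapped in part. Of the genes called higher, 120 were shared, which is 52.6% of the calls without anti-PD-1 and 41.2% of those with it. Of the genes called lower, 236 were shared, 71.1% and 56.5% of the respective calls, and 4 genes were called in opposite directions. Across the 7526 genes, which are not independent of each other, the log2 ratios correlated with a Pearson r of 0.685. Ranked by the smaller of both ratios, the highest genes called in both were Areg, a ligand of the EGF receptor, Ccl24, a chemokine for eosinophils, and Saa3, an acute-phase apolipoprotein. The lowest were Folr2, a folate receptor, Cbr2, a carbonyl reductase, and Fcrls, an Fc receptor-like scavenger molecule, all 3 of them listed here as genes of tissue-resident macrophages.

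**Figure D2:**
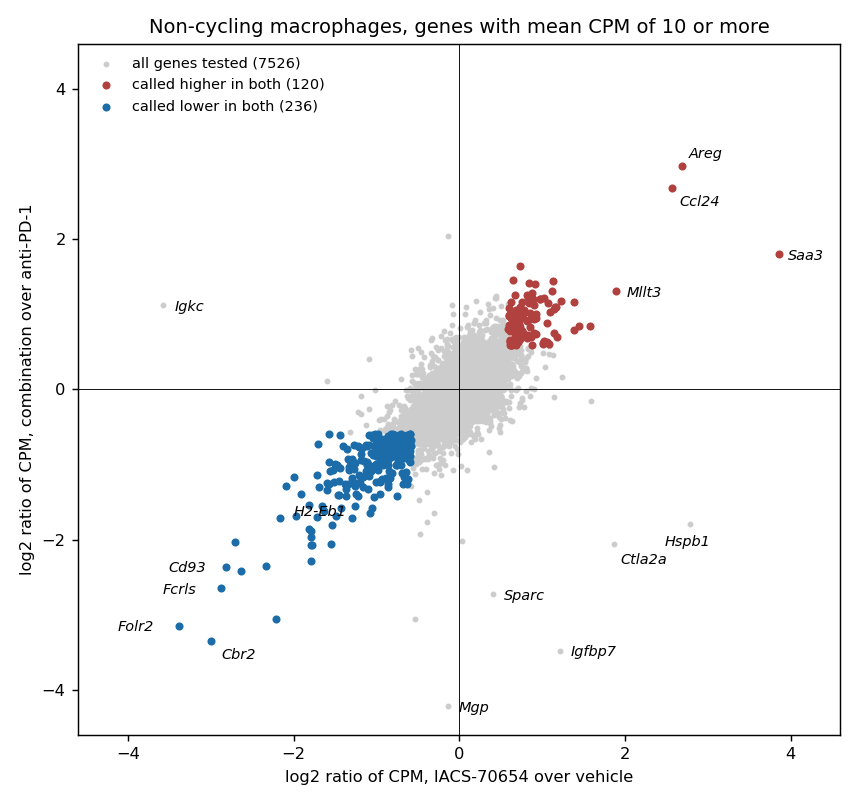
Each point is 1 of 7526 genes in non-cycling macrophages, with the log2 ratio of CPM for IACS-70654 over vehicle on the horizontal axis and for the combination over anti-PD-1 on the vertical axis; red points (120) were called higher and blue points (236) lower in both. Areg, Ccl24 and Saa3 lie at the upper right, Folr2, Cbr2 and Fcrls at the lower left, and Hspb1, Ctla2a, Igfbp7 and Igkc off the diagonal.

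Transcripts of the MHC class II pathway were lower in both libraries with IACS-70654. This list and those below were chosen with earlier results of these data known, so their counts of calls are a description. Of 13 class II genes, all of them tested, 8 were called lower and 0 higher in each comparison, with a median log2 ratio of -0.83 against vehicle and -0.68 against anti-PD-1. H2-Aa (ENSMUSG00000036594), the alpha chain of I-A, measured 3998 CPM with vehicle, 1471 with IACS-70654, 3499 with anti-PD-1 and 1696 with the combination. H2-Eb1 (ENSMUSG00000060586), the beta chain of I-E, measured 3073, 946, 2644 and 1077 CPM. The 2 libraries with IACS-70654 lay below both others for each chain. The log2 ratio of H2-Aa was -1.44 (-1.47 to -1.41) against vehicle and -1.05 (-1.08 to -1.01) against anti-PD-1, which is 2.72-fold and 2.06-fold lower. For H2-Ab1, the I-A beta chain, the log2 ratio was -1.60 (-1.63 to -1.57) and -1.25 (-1.28 to -1.21).

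The genes that control and load class II fell too, though by different amounts. Ciita (ENSMUSG00000022504), the coactivator without which class II genes are not transcribed, stood at 42.5, 15.2, 37.8 and 18.7 CPM, with log2 ratios of -1.48 (-1.76 to -1.21) and -1.01 (-1.33 to -0.68). Cd74 (ENSMUSG00000024610), the invariant chain that guards the peptide groove, stood at 12193, 6449, 11071 and 6931 CPM, with log2 ratios of -0.92 and -0.68. H2-DMb1, part of the peptide exchange factor, stood at 435, 175, 400 and 206 CPM. Its partner H2-DMa was not called, at 581, 421, 585 and 459 CPM. Ifi30, a lysosomal thiol reductase, was called lower at 759, 490, 800 and 444 CPM, and the costimulatory gene Cd86 stood at 512, 561, 491 and 573 CPM and was not called. The fall thus covered the class II chains, Ciita and Cd74 but not the costimulatory genes Cd80, Cd86 and Cd40.

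The Y box is an element of class II promoters that the factor NF-Y binds, searched here as the letters CTGATTGG on either strand. Not every class II promoter held these letters. The stretches shown are from the 250 bases before the annotated start (RefSeq, GRCm38.p6) and are printed because the 2 class II chains fell while the class I gene H2-D1 rose, with the same letters in all 3. Each is 130 bases, 5′ to 3′ on the strand of its gene, with the motif or its reverse complement in capitals. H2-Aa is at chr17:34287824-34287953 on the minus strand, H2-Eb1 at chr17:34305737-34305866 on the plus strand and H2-D1 at chr17:35262964-35263093 on the plus strand.
H2-Aa promoter: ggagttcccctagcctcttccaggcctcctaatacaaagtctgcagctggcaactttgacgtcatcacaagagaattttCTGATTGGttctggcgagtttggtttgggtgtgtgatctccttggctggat
H2-Eb1 promoter: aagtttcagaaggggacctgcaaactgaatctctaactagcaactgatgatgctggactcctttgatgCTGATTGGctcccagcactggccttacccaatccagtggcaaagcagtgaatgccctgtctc
H2-D1 promoter: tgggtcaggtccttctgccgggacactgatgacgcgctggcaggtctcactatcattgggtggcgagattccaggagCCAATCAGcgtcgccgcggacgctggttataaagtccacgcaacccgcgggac
The match ends 43 bases before the start in H2-Aa, 54 in H2-Eb1 and 45 in H2-D1. These are reference sequences and were not read from the BALB/c mice. The letters occurred in 4.43% of 27025 genes with a promoter sequence, in 2 of 8 such class II genes (25%) and in 6 of 18 class I genes (33.3%). They occurred in 5.75% of the genes tested, in 6.52% of 92 called higher in both comparisons and in 5.98% of 184 called lower in both. No match in the window of H2-DMb1 says only that these letters are not in it.

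The class II level differed between single macrophages within every library. In cells thinned to 2000 UMIs (582, 2519, 421 and 2383 members, leaving out 2, 21, 7 and 17 shallower ones), the sum of H2-Aa, H2-Ab1 and H2-Eb1 had a median of 20 UMIs with vehicle, 3 with IACS-70654, 14 with anti-PD-1 and 3 with the combination. The 90th percentile was 57, 23, 52 and 26 UMIs, so class II-rich cells were present in every library. Cells with 20 or more class II UMIs were 50.2%, 12.2%, 44.2% and 14.6% of members, cells with 1 to 4 were 12.5%, 37.2%, 19.5% and 34.5%, and cells with none were 11.9%, 23.6%, 12.8% and 21.3%. Without thinning, 94.7%, 91.5%, 95.3% and 91.4% of members held at least 1 class II UMI. These are ranges of 1 measure and not cell types, since 52, 491, 39 and 456 cells held 3 to 6 UMIs, next to the limit of 5. The thinned mean was 24.2, 7.74, 20.8 and 8.79 UMIs per member, against 0.318, 0.233, 0.286 and 0.137 in tumor cells and 2.98, 2.21, 3.13 and 1.13 in T and NK cells. Here and below, the rule for tumor cells and for T and NK cells allowed at most 4 C1q UMIs. It leaves out such cells with more macrophage RNA, so the background they give may be too low.

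Class II was also read within ranges of other measures. Among members with no Ccr2 UMI the class II mean was 21.9, 6.44, 16.9 and 7.45 UMIs, and among members with Ccr2 it was 28.7, 15, 28.7 and 17.2. The libraries with IACS-70654 were lower in both groups of cells, by a smaller factor among members with Ccr2. Nuclear Malat1 RNA, often raised in damaged or nucleus-rich droplets, was higher with IACS-70654 (6546, 10931, 6797 and 9810 CPM). The paper also reported higher Malat1 with IACS-70654 in stem and progenitor cells of the marrow. The median mitochondrial share of members was 1.72%, 1.51%, 1.68% and 1.45%, lower in both libraries with IACS-70654. Within members holding 20 or more thinned Malat1 UMIs, the class II mean was 25.1, 7.69, 18.1 and 8.49. The part that Ccr2-bearing cells and RNA quality play in the difference was not tested.

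Genes of tissue-resident macrophages were mostly lower. Of 16 genes, 10 were tested, of which 8 were called lower and 1 higher against vehicle (median log2 ratio -1.32), and 7 lower and 1 higher against anti-PD-1 (median -1.15). Folr2 (ENSMUSG00000032725) measured 152 CPM with vehicle, 14.5 with IACS-70654, 124 with anti-PD-1 and 14.0 with the combination, with log2 ratios of -3.38 (-3.60 to -3.17) and -3.15 (-3.40 to -2.90). Fcrls (ENSMUSG00000015852) measured 460, 62.3, 424 and 67.7 CPM, with log2 ratios of -2.88 (-2.99 to -2.78) and -2.65 (-2.77 to -2.53). Cbr2 (ENSMUSG00000025150) measured 57.9, 7.24, 44.7 and 4.37 CPM. For these 3 genes the libraries fell into a low pair and a high pair. They ranked lowest in both comparisons, so this pattern follows from how they were picked.

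Other resident genes fell by less. F13a1, the coagulation factor XIII A chain, stood at 149, 53.7, 136 and 51.2 CPM, and Stab1, a scavenger receptor for modified lipoproteins, at 163, 72.1, 135 and 78.9 CPM. Gas6, the bridging ligand that links dying cells to the receptor Mertk and its relatives, stood at 113, 57.0, 105 and 56.7 CPM, and the growth factor Igf1 at 28.7, 10.2, 40.2 and 12.5 CPM. Selenop (ENSMUSG00000064373), a secreted selenium carrier, was the member of the list that rose, from 1293 to 2228 CPM against vehicle and from 1034 to 2152 CPM against anti-PD-1, with log2 ratios of 0.79 (0.75 to 0.83) and 1.06 (1.00 to 1.11). In thinned cells the mean of Selenop was 2.35, 4.55, 2.28 and 4.54 UMIs per member, and 74.1%, 82.6%, 71.7% and 83.0% of members held it, so the rise lay mostly in the amount per cell. Summed over the list, which Selenop weights heavily, the level was 4385, 3806, 3504 and 4440 CPM, lower with IACS-70654 than with vehicle and higher with the combination than with anti-PD-1. The list therefore did not move as one program.

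Folr2, Cbr2, Fcrls and F13a1, 4 genes of the list that were lower, chosen after their values were seen and without Selenop, were then counted together in thinned cells as a description. At least 1 UMI of the 4 genes was found in 51.7% (47.6 to 55.8) of vehicle members, 16.2% (14.8 to 17.7) of IACS-70654 members, 49.6% (44.8 to 54.5) of anti-PD-1 members and 17.6% (16.1 to 19.2) of combination members. Unthinned, the shares were 67.5%, 33.0%, 66.6% and 33.2%. The background in T and NK cells was 2.5%, 4.76%, 0% and 1.49% in 40, 42, 67 and 67 thinned cells, and in tumor cells 1.17%, 0.295%, 1.56% and 0.481%, with median unthinned depths of 2041 to 2288 UMIs for T and NK cells and 13890 to 16118 UMIs for tumor cells. The 0 of 67 cells with anti-PD-1 allows a share of up to 4.48% by the limit of 3 counts. The member shares lay above this background in all 4 libraries, a background taken from cells limited to at most 4 C1q UMIs. Fcrls alone was found in 44.3%, 10.7%, 40.1% and 11.6% of thinned members (62.2%, 24.2%, 58.2% and 24.8% unthinned), in no T or NK cell and in at most 0.446% of tumor cells.

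Class II UMIs and UMIs of these 4 resident genes were counted jointly in the same thinned cells. With 5 class II UMIs and 1 UMI of the 4 genes as limits, cells with both were 33.8% of vehicle, 3.10% of IACS-70654, 23% of anti-PD-1 and 4.32% of combination members. Cells with neither were 6.53%, 47.6%, 5.70% and 42.4%, a share that depends on the 4 genes chosen: Selenop, of the same list, was held by more members of the libraries with IACS-70654. Cells with class II alone were 41.8%, 36.1%, 44.7% and 39.9%, and cells with the 4 resident genes alone were 17.9%, 13.1%, 26.6% and 13.3%. The Spearman correlation between both sums across cells was -0.39 with vehicle, -0.21 with IACS-70654, -0.49 with anti-PD-1 and -0.21 with the combination, a description over cells that share a library. Below 5 class II UMIs, 73.2%, 21.6%, 82.4% and 23.9% of cells held a UMI of the 4 genes, and at or above it 44.8%, 7.89%, 34.0% and 9.76% did.

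**Figure D3:**
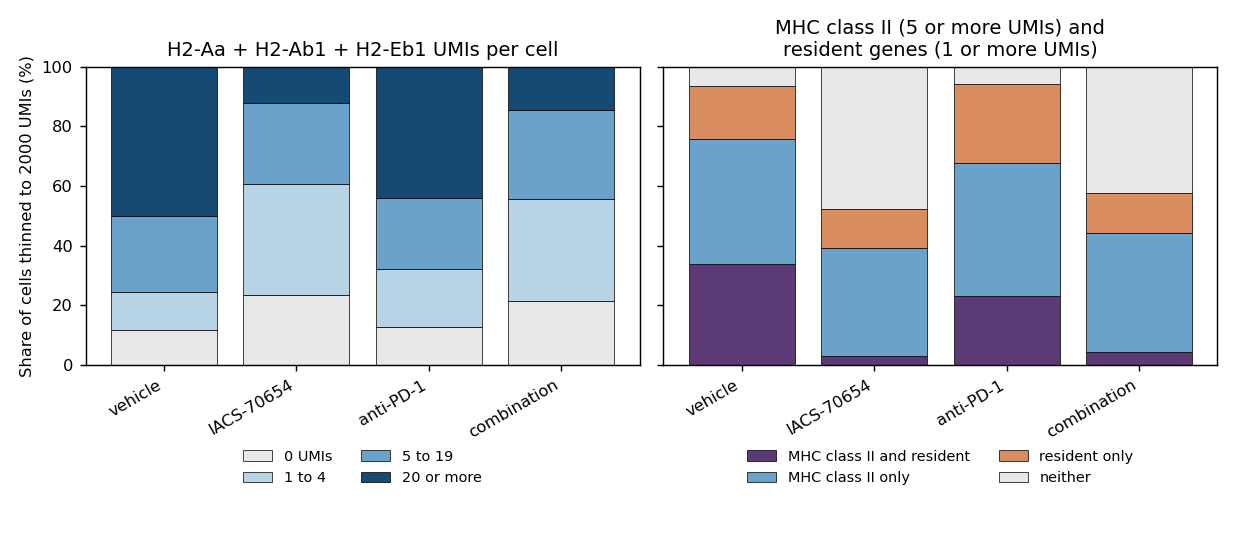
Stacked bars give the percent of members thinned to 2000 UMIs in each library, by the sum of H2-Aa, H2-Ab1 and H2-Eb1 UMIs per cell (left) and by having 5 or more class II UMIs, 1 or more UMIs of Folr2, Cbr2, Fcrls and F13a1, both or neither (right). Cells with 20 or more class II UMIs went from 50.2% with vehicle and 44.2% with anti-PD-1 to 12.2% and 14.6% in the libraries with IACS-70654, and cells with neither set from 6.53% and 5.70% to 47.6% and 42.4%, with the 4 resident genes chosen among those that were lower and Selenop, which was higher, not counted.

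Genes linked to recent monocyte origin did not fall as a list, though some were lower. Of 20 listed genes, 14 were tested, with 4 lower and 0 higher against vehicle and 4 lower and 1 higher against anti-PD-1. The median log2 ratio was -0.04 in each comparison. The list summed to 3188 CPM with vehicle, 3421 with IACS-70654, 3206 with anti-PD-1 and 3566 with the combination. Ccr2, the receptor that brings monocytes into tissue, stood at 265, 118, 275 and 112 CPM, with log2 ratios of -1.16 (-1.27 to -1.06) and -1.29 (-1.42 to -1.17). S100a4, a calcium-binding protein of recruited myeloid cells, stood at 51.3, 22.2, 52.8 and 24.0 CPM, and Ly6c2, the monocyte surface antigen, at 15.6, 5.43, 21.3 and 10.1 CPM. Plac8 was not called (163, 232, 201 and 301 CPM), nor was the matrix gene Fn1 (663, 743, 714 and 616 CPM). The share of thinned members with a Ccr2 UMI was 33.7%, 15.3%, 33.3% and 13.8%, and that of T and NK cells, some of which express Ccr2, was 20%, 21.4%, 19.4% and 5.97%, so the share with IACS-70654 did not exceed it. Unthinned, 59.9%, 26.0%, 53.5% and 24.9% of members held Ccr2. Lower resident genes and lower Ccr2 therefore occurred in the same libraries.

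The general macrophage list moved in both directions. Of 15 identity genes, 5 were lower and 1 higher against vehicle and 4 lower and 2 higher against anti-PD-1. Lyz2, lysozyme, stood at 14718, 9511, 13543 and 8729 CPM, with a log2 ratio of -0.63 in each. Mertk (ENSMUSG00000014361), the receptor tyrosine kinase that takes up apoptotic cells through Gas6, stood at 52.2, 117, 65.7 and 141 CPM, with log2 ratios of 1.17 (0.97 to 1.37) and 1.10 (0.88 to 1.32). In thinned cells the mean of Mertk was 0.089, 0.24, 0.11 and 0.27 UMIs per member, and among members with fewer than 10 Malat1 UMIs it was 0.065, 0.11, 0.069 and 0.12. The libraries with IACS-70654 were higher in both, by a smaller factor among members with few Malat1 UMIs. The Spearman correlation of Mertk with Malat1 across cells was 0.10, 0.15, 0.14 and 0.20, a description over cells that share a library. Neither the part of RNA quality in the difference nor what Malat1 reflects in these cells was tested.

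In thinned cells, a Mertk UMI was found in 8.08%, 17.9%, 9.5% and 19.9% of members, against at most 4.48% of T and NK cells and at most 0.962% of tumor cells, and unthinned in 27.1%, 39.6%, 26.9% and 43.1% of members. The Mertk UMIs were spread over many cells, since 45, 230, 30 and 226 cells held 50% of them. Acp5, the tartrate-resistant acid phosphatase of osteoclasts and macrophages, stood at 398, 115, 403 and 109 CPM with log2 ratios of -1.79 (-1.88 to -1.70) and -1.88 (-1.99 to -1.77). Itgax, the CD11c integrin chain, stood at 136, 74.5, 146 and 59.2 CPM, and Gpr34, a receptor for lysophosphatidylserine, at 74.2, 14.7, 75.9 and 14.9 CPM. Cd93, a C-type lectin involved in clearance of dying cells, stood at 38.2, 5.43, 39.5 and 7.68 CPM, and Il7r at 49.1, 7.52, 37.4 and 9.17 CPM. Each of these 5 was called lower in both comparisons, which for Acp5, Gpr34, Cd93 and Il7r was a condition of being named.

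Type I interferon response genes were higher. Of 34 listed genes, 33 were tested, with 19 called higher and 0 lower against vehicle and 17 higher and 0 lower against anti-PD-1, at median log2 ratios of 0.61 and 0.60. With every member thinned to 2000 UMIs before summing, 11 rather than 17 were called higher against anti-PD-1. Usp18 (ENSMUSG00000030107), the protease that removes Isg15 from proteins and damps interferon signalling, stood at 24.6, 51.8, 23.1 and 51.4 CPM, with log2 ratios of 1.07 (0.78 to 1.37) and 1.16 (0.79 to 1.54). Irf7, the amplifying transcription factor, stood at 236, 367, 233 and 424 CPM, with log2 ratios of 0.64 and 0.86. Oasl2, of the oligoadenylate synthetase family, stood at 43.2, 80.7, 41.6 and 79.4 CPM. These 3 were as low with anti-PD-1 as with vehicle.

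In other genes of the list the anti-PD-1 library was above vehicle as well. Rsad2, which encodes the antiviral protein viperin, stood at 60.8, 143, 102 and 115 CPM and was called higher for IACS-70654 against vehicle (1.24, 1.06 to 1.42) and not for the combination against anti-PD-1 (0.17, -0.01 to 0.35). Cxcl10, the chemokine for CXCR3-bearing T cells, stood at 103, 188, 187 and 190 CPM. Ifit3, an interferon-induced repeat protein, stood at 50.9, 107, 72.7 and 109 CPM. For Rsad2 and Cxcl10 the comparison of anti-PD-1 with vehicle was itself called, at log2 ratios of 0.75 and 0.87. In the anti-PD-1 library 6 cells held 50% of the 292 Rsad2 UMIs and 6 cells 50% of the 535 Cxcl10 UMIs. Without the highest 1% of cells the log2 ratio of Rsad2 against vehicle was 0.55, under the 1.5-fold limit, and that of Cxcl10 was 0.65.

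The interferon-stimulated response element, the letters GAAANNGAAA on either strand, occurred in the 250 bases before the start of 14 of 27 interferon-list genes with a promoter sequence (51.9%). It occurred in 3.46% of all 27025 genes with a promoter sequence, in 3.79% of the genes tested, in 15.2% of 92 genes called higher in both comparisons and in 4.35% of 184 called lower in both. Rsad2 and Isg15 are shown because they hold the element on opposite strands, with the element or its reverse complement in capitals. Rsad2 is at chr12:26456468-26456597 and Isg15 at chr4:156200819-156200948, both printed 5′ to 3′ on the minus strand of their genes.
Rsad2 promoter: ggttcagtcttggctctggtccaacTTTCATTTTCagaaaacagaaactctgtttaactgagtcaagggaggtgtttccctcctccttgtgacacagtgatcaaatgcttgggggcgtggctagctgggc
Isg15 promoter: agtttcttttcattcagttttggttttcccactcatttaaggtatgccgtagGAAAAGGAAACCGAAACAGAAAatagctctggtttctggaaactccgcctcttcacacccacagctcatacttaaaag
Isg15, the ubiquitin-like modifier, holds 3 overlapping matches and stood at 235, 330, 250 and 354 CPM without reaching the 1.5-fold limit. Rsad2 holds 1 match.

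Per cell, the sum of 8 interferon genes had a thinned mean of 1.46, 2.42, 1.76 and 2.57 UMIs in members. A UMI of the 8 (Ifit1, Ifit2, Ifit3, Isg15, Rsad2, Irf7, Usp18 and Oasl2) was found in 51.2%, 64.2%, 48.9% and 68.7% of members (75.5%, 86.4%, 69.6% and 89.3% unthinned), in 27.5%, 40.5%, 49.3% and 49.3% of T and NK cells and in 17.2%, 51.0%, 26.8% and 57.6% of tumor cells. Tumor cells of the libraries with IACS-70654 thus also held more of these UMIs than tumor cells of the other libraries, and in the anti-PD-1 library the member share was no higher than that of T and NK cells, which can express these genes themselves.

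Some MHC class I genes were higher, among them the classical heavy chains. Of 20 class I genes, all tested, 5 were higher against vehicle and 10 against anti-PD-1, with 0 lower and median log2 ratios of 0.21 and 0.54. H2-K1 (ENSMUSG00000061232) stood at 1508, 2363, 1438 and 2535 CPM, with log2 ratios of 0.65 (0.61 to 0.69) and 0.82 (0.77 to 0.86). H2-D1 (ENSMUSG00000073411) stood at 3716, 5802, 3362 and 5987 CPM, and its log2 ratios were 0.64 and 0.83. Both are classical class I heavy chains, and class I genes of the H2 complex are near-identical in parts, so reads may be split between them. Reads of the BALB/c mice were mapped to build mm10, and the part of strain differences in H2 genes was not tested. Tap1, the peptide transporter, was called only against anti-PD-1 (64.2, 70.3, 50 and 81.2 CPM). The light chain B2m was not called, at log2 ratios of 0.21 and 0.33, nor were the immunoproteasome genes Psmb8, Psmb9 and Psmb10. Nlrc5, the class I coactivator that corresponds to Ciita, stood at 17.9, 21.5, 14.7 and 24.3 CPM.

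Interferon gamma response genes were called higher more often than lower, though not all moved the same way. Of 15 tested, 6 were higher and 2 lower against vehicle, and 10 higher and 1 lower against anti-PD-1. The median log2 ratios were 0.22 and 0.75. Among all genes tested, 3.03% and 3.87% were called higher and 4.41% and 5.55% lower. Socs1, the feedback inhibitor of cytokine receptors, stood at 11.1, 23, 12.9 and 23.8 CPM, and the guanylate-binding protein gene Gbp7 at 76.0, 120, 73.1 and 146 CPM. Cd274, which encodes the PD-L1 ligand of PD-1, stood at 37.1, 60.4, 45.1 and 75.9 CPM, with log2 ratios of 0.70 (0.47 to 0.95) and 0.75 (0.49 to 1.03). Cxcl9, another chemokine for CXCR3-bearing T cells, stood at 64.9, 42.2, 90.2 and 61.0 CPM and was called lower against vehicle. Ciita, which interferon gamma induces in macrophages, was the gene of this list with the lowest ratios. Induced and reduced genes of the list thus stood in the same libraries.

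**Figure D4:**
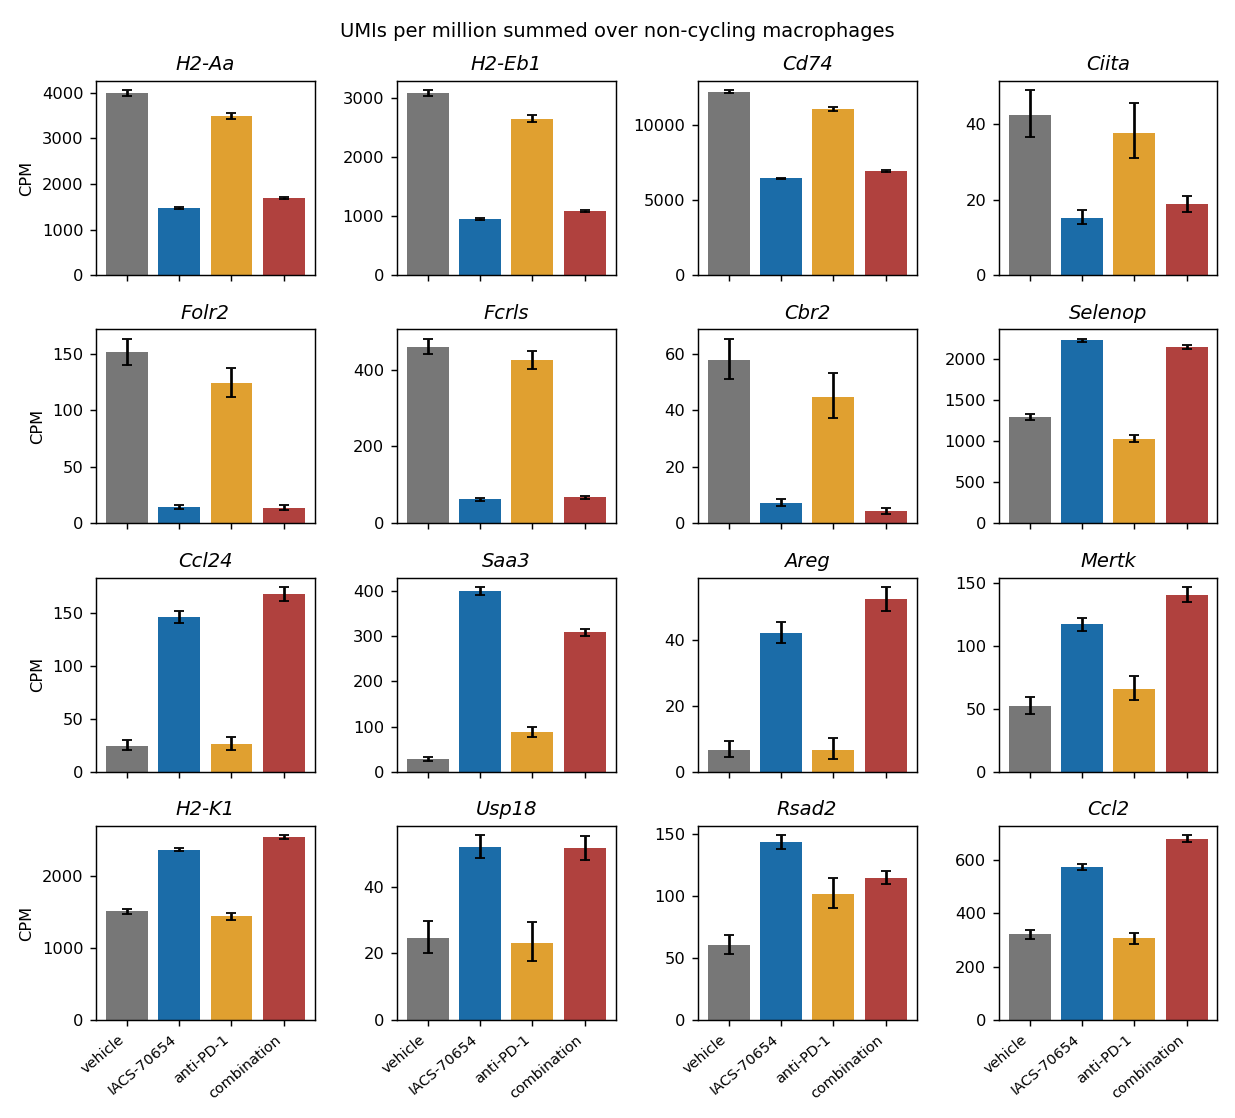
Bars give CPM of 16 genes summed over non-cycling macrophages in the vehicle, IACS-70654, anti-PD-1 and combination libraries, with 95% exact Poisson intervals for counting error and a linear axis from 0 in each panel. H2-Aa, H2-Eb1, Cd74, Ciita, Folr2, Fcrls and Cbr2 were lower and Ccl24, Saa3, Areg, Mertk, Selenop, H2-K1, Usp18 and Ccl2 higher in both libraries with IACS-70654, and Rsad2 stood at 102 CPM with anti-PD-1, where 6 cells held 50% of its UMIs, against 60.8 CPM with vehicle.

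Among genes called higher in both comparisons, the 3 with the highest smaller ratio encode secreted factors. Ccl24 (ENSMUSG00000004814) stood at 24.6 CPM with vehicle, 146 with IACS-70654, 26.2 with anti-PD-1 and 168 with the combination, with log2 ratios of 2.57 (2.29 to 2.86) and 2.68 (2.35 to 3.03), or 5.93-fold and 6.41-fold higher. Saa3 (ENSMUSG00000040026) stood at 27.6, 399, 88.4 and 308 CPM, with log2 ratios of 3.85 (3.60 to 4.13) and 1.80 (1.62 to 1.99). Areg (ENSMUSG00000029378) stood at 6.56, 42.2, 6.64 and 52.4 CPM, with log2 ratios of 2.68 (2.15 to 3.27) and 2.98 (2.33 to 3.72). Saa3 differed from the other 2 in that it was called higher with anti-PD-1 alone, at a log2 ratio of 1.68.

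These 3 genes came from few cells. Of 2583 Ccl24 UMIs with IACS-70654, 547 cells held any and 62 cells held 50%, and of 2692 with the combination, 589 cells held any and 75 held 50%. Saa3 was narrower, with 7053 UMIs in 332 cells of the IACS-70654 library, of which 23 cells held 50%, and 253 UMIs in 28 cells of the anti-PD-1 library, of which 3 cells held 50%. Areg UMIs were found in 146 cells with IACS-70654, where 1 cell held 144 of 745, and in 142 cells with the combination. After thinning, Ccl24 was found in 3.61%, 12.7%, 5.70% and 14.2% of members and Saa3 in 3.26%, 8.26%, 4.51% and 8.43%, against at most 4.76% and 4.48% of T and NK cells. Unthinned, the shares of members were 10.8%, 21.5%, 11.7% and 24.5% for Ccl24 and 8.73%, 13.1%, 6.54% and 12.8% for Saa3. With vehicle and anti-PD-1 the shares of members with either gene lay near that background. The rise in CPM was therefore carried by a minority of members in each library. Areg was also found in 5%, 4.76%, 5.97% and 17.9% of thinned T and NK cells and in 2.33%, 7.53%, 2.23% and 7.88% of tumor cells, so its share of macrophages cannot be read above background.

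Among 17 tested chemokines, 4 were higher and 2 lower against vehicle and 6 higher and 1 lower against anti-PD-1. Ccl2, the main ligand of Ccr2, stood at 321, 576, 307 and 680 CPM, with log2 ratios of 0.84 (0.76 to 0.92) and 1.15 (1.05 to 1.25). Ccl3, a chemokine for monocytes and other leukocytes, stood at 215, 351, 213 and 330 CPM. In thinned cells Ccl2 was found in 26.8%, 39.4%, 24.9% and 43.4% of members (47.9%, 57.8%, 45.1% and 61.5% unthinned), against 15%, 11.9%, 7.46% and 2.99% of T and NK cells. The ligand gene Ccl2 thus rose where its receptor gene Ccr2 fell. Ccl8 followed another order, at 1769, 1180, 1291 and 1857 CPM, and was called only for the combination against IACS-70654 (log2 ratio 0.65). Ccl7 was lowest with anti-PD-1 and highest with the combination (467, 437, 273 and 595 CPM).

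Of 15 tested proinflammatory cytokine genes, 0 were higher and 1 lower against vehicle, near the share of all genes, and 0 were called against anti-PD-1. Il1b stood at 1109, 1021, 1243 and 961 CPM and Tnf at 45.7, 38.9, 45.8 and 44.2 CPM. The called gene was Nfkbiz, an atypical inhibitor of NF-kB, at 165, 99.0, 142 and 97.3 CPM. Of 8 tested genes of alternative activation, 2 were higher against vehicle and 4 against anti-PD-1, led by Ccl24 and Egr2, whereas the mannose receptor Mrc1 (458, 368, 381 and 441 CPM) and arginase Arg1 (112, 97.0, 163 and 109 CPM) were not called. This list therefore did not change as a whole.

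**Figure D5:**
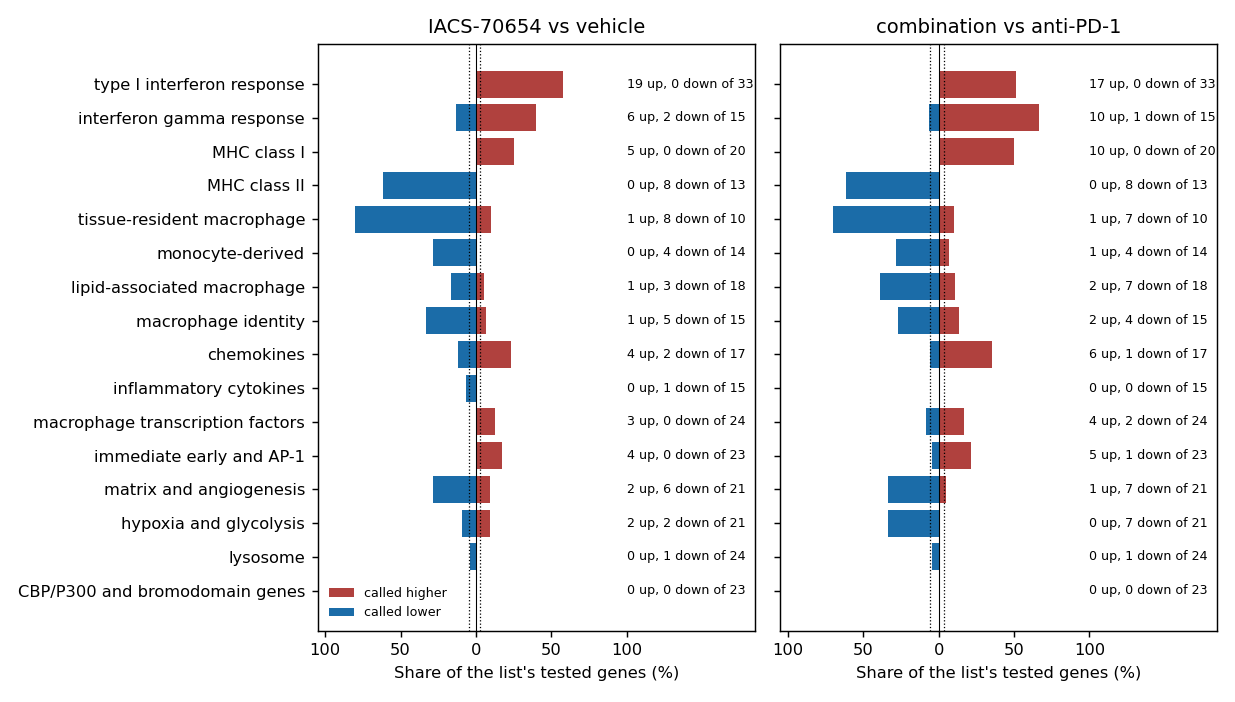
Bars give the percent of each list's tested genes called higher (red, right) or lower (blue, left) for IACS-70654 against vehicle and for the combination against anti-PD-1, with dotted lines at the percent of all 7526 tested genes called higher (3.03 and 3.87) and lower (4.41 and 5.55). Type I interferon genes lay on the higher side (19 and 17 of 33), class II (8 and 8 of 13) and resident genes (8 and 7 of 10) on the lower side, and no CBP/P300 or bromodomain gene was called. The lists were chosen with earlier results of these data known, so the dotted lines are not a test of them.

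Most transcription factor genes of the macrophage lineage were not called, which also holds for most of all genes tested. Spi1, which encodes PU.1, stood at 395, 375, 399 and 357 CPM and Irf8 at 248, 272, 251 and 282 CPM, and neither was called. Of 24 tested, 3 were higher (Cebpb, Klf4 and Bhlhe40) and 0 lower against vehicle, and 4 were higher and 2 lower against anti-PD-1. Among all genes tested, 3.03% and 3.87% were called higher and 4.41% and 5.55% lower. Cebpb, a bZIP factor of inflammatory and alternative programs, stood at 897, 1408, 833 and 1582 CPM, with log2 ratios of 0.65 and 0.93. Nr1h3 and Bhlhe41 were called lower against anti-PD-1, Bhlhe41 from 39.5 to 11.6 CPM. Among 23 immediate early genes, 4 were higher and 0 lower against vehicle and 5 higher and 1 lower against anti-PD-1, the higher ones including the stress response gene Ier3 (595, 1004, 615 and 1052 CPM). Nr4a2, an orphan nuclear receptor that limits inflammatory genes, stood at 99.2, 201, 86.3 and 201 CPM and was called higher in both comparisons.

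The targets of the drug were measured in the same cells. Crebbp, which encodes CBP, stood at 111, 132, 106 and 132 CPM, and Ep300, which encodes P300, at 48.4, 64.2, 50.7 and 59.4 CPM. None of 23 tested genes for CBP, P300, other acetyltransferases, bromodomain proteins and deacetylases was called in either comparison, and their median log2 ratios were 0.19 and 0.05. RNA levels say nothing of the activity of the proteins.

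Lipid-handling genes were mixed. Apoe (ENSMUSG00000002985), the most abundant apolipoprotein here, stood at 43067, 61242, 39890 and 63913 CPM. Its log2 ratio of 0.51 against vehicle missed the 1.5-fold limit and that of 0.68 against anti-PD-1 passed it. Apoc2, the cofactor of lipoprotein lipase, fell from 292 to 127 and from 291 to 123 CPM, while Lpl, the lipase itself, rose from 45.2 to 71.1 and from 35.7 to 97.9 CPM. Trem2, the lipid-sensing receptor of lipid-associated macrophages, stood at 797, 595, 825 and 670 CPM and Spp1, osteopontin, at 3918, 3815, 4301 and 3449 CPM, neither of them called. Lgals3, galectin 3, fell from 1009 to 519 and from 1175 to 502 CPM. In the list of 18 tested lipid-associated genes, 1 was higher and 3 lower against vehicle and 2 higher and 7 lower against anti-PD-1.

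Of 8 iron genes tested, 3 were lower and 0 higher in each comparison: Fth1, the ferritin heavy chain (20233, 13410, 20098 and 13312 CPM), Hmox1, heme oxygenase (192, 113, 165 and 106 CPM), and Slc11a1, the phagosomal metal transporter (85.5, 45.5, 81.1 and 51.5 CPM). Ferritin light chain Ftl1 was not called. Of 24 lysosomal genes, 1 was lower in each comparison, which was Cd68, a share near that of all genes, and the cathepsin genes were not called. Of 7 tested sterol synthesis genes, 1 was lower against vehicle and 2 against anti-PD-1, with medians of -0.49 and -0.48.

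Matrix genes were lower more often than higher, with 2 higher and 6 lower of 21 against vehicle and 1 higher and 7 lower against anti-PD-1. Timp2, an inhibitor of metalloproteinases, fell from 664 to 395 and from 720 to 358 CPM. Ecm1, an extracellular matrix protein, fell from 74.8 to 24.2 and from 71.3 to 23.2 CPM, and Plau, the urokinase activator of plasminogen, from 116 to 62.9 and from 121 to 64.9 CPM. Vegfa was not called, at 57.4, 71.3, 62.6 and 80.7 CPM. Fibroblast and endothelial marker RNA was also lower with IACS-70654 (105, 39.8, 100 and 42.8 CPM summed), and its part in the matrix values was not tested. Hypoxia and glycolysis genes were called lower in 7 and higher in 0 of 21 cases for the combination against anti-PD-1, and lower in 2 and higher in 2 against vehicle. Here the anti-PD-1 library was the high one. Pgk1, a glycolytic kinase, stood at 251, 202, 342 and 202 CPM, and the lactate exporter Slc16a3 at 43.4, 35, 68.2 and 31.4 CPM. Neutrophil marker RNA was highest in the same library, and its part in these values was not tested.

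The rule removed cells with 2 or more UMIs of Mki67 and Top2a, and other cell cycle genes were still measured. Of 17 tested, 6 were lower and 1 higher against vehicle and 7 lower and 2 higher against anti-PD-1, a description that the rule bears on. Ccnd1, cyclin D1, stood at 98.1, 42.7, 90.5 and 40.7 CPM. Ccnd2, cyclin D2, went the other way, at 48.2, 91.0, 47.2 and 90.9 CPM. The replication gene Mcm2 stood at 13.6, 6.96, 16.4 and 6.99 CPM. The 2 D-type cyclins thus exchanged order between the pairs of libraries.

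Of 14 tested checkpoint ligands and receptors, 1 was higher and 3 lower against vehicle, and 1 higher and 4 lower against anti-PD-1. Havcr2, which encodes TIM-3, fell from 110 to 70.8 and from 111 to 70.3 CPM, and Clec4d, a C-type lectin, from 47.7 to 13.5 and from 52.8 to 14.6 CPM. Sirpa, the receptor of the CD47 signal, stood at 271, 287, 265 and 283 CPM, and Axl, the relative of Mertk, at 159, 170, 158 and 166 CPM, and neither was called. Of 17 tested scavenger and phagocytic receptors, 1 was higher and 4 lower against vehicle and 2 higher and 3 lower against anti-PD-1. Of the growth factor and cytokine receptors, 0 of 17 were called against vehicle, and 1 higher and 1 lower against anti-PD-1.

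Fewer genes were called for anti-PD-1 against vehicle than in the IACS-70654 comparisons, with 98 higher (1.3%) and 62 lower (0.824%). For the combination against IACS-70654, 19 were higher (0.252%) and 11 lower (0.146%). With a filter at 50 CPM (3025 genes) the calls higher and lower were 9 and 5, and 3 and 0, in the same order. Vehicle and anti-PD-1 held the fewest member UMIs, so counts of calls at unlike depth are not sizes of effect. With members thinned to 2000 UMIs before summing, 168 genes were called higher for anti-PD-1 against vehicle, and 48 higher and 39 lower for the combination against IACS-70654. These 2 comparisons share no library with each other. Only 3 genes were called the same way in both, Cxcl13 and Serpine2 higher and Igkc lower, and 7 were called in opposite directions, with a Pearson r of -0.0124 across genes. Cxcl13, the B cell chemokine, stood at 46.1, 35, 83.2 and 62.4 CPM, and 2 to 7 cells held 50% of its UMIs in each library. Serpine2, a protease inhibitor, stood at 16.7, 7.92, 38.5 and 12.3 CPM, and 1 anti-PD-1 cell held 51 of 110 UMIs. Igkc, the immunoglobulin kappa constant gene of B and plasma cells, stood at 150, 12.6, 3.85 and 8.36 CPM, and 1 vehicle cell held 619 of 664 UMIs. Each of the 3 genes thus had much of its UMIs in a few cells of at least 1 library.

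Within the single comparisons, anti-PD-1 against vehicle called 0 of 13 class II genes and 0 of 10 resident genes, with medians of -0.12 and -0.28. S100a9, a calcium-binding protein of neutrophils, stood at 115, 82.8, 332 and 87.7 CPM, and 3 anti-PD-1 cells held 50% of the UMIs of that library. For the combination against IACS-70654, the interferon-induced genes Gbp4 (19.4 to 34.3 CPM) and Serpina3g (25.1 to 40.7 CPM) were called higher, as was Ly6c2 (5.43 to 10.1 CPM). Cbr2 was called lower (7.24 to 4.37 CPM). Of the 17 calls on named genes in this comparison, 7 were called again with members thinned to 2000 UMIs before summing, among them Serpina3g but not Gbp4, Ly6c2 or Cbr2. Class II genes were again not called, with a median of 0.10.

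Cycling macrophages (54, 102, 63 and 93 cells) and monocytes (58, 20, 77 and 51 cells) were the most similar cells outside the rule, and their values describe those cells without a test. H2-Aa in cycling macrophages stood at 3016, 1320, 1625 and 1012 CPM, and in monocytes at 4170, 2400, 2941 and 1375 CPM. Fcrls in cycling macrophages stood at 460, 55.4, 523 and 42.6 CPM. In monocytes it had 0 UMIs in 3 libraries and 1 UMI in the combination library. The fall in Fcrls was thus also seen in cycling macrophages, and H2-Aa was lower with IACS-70654 in all 3 cell groups.

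Other genes differed less between those groups or in another way. Ccl24 in cycling macrophages stood at 10.5, 83.2, 11.1 and 123 CPM, and Acp5 at 281, 65.2, 307 and 49.1 CPM, both in the order seen in non-cycling members. Selenop in cycling macrophages stood at 901, 800, 504 and 542 CPM, without the rise of 1293 to 2228 CPM seen in members, and Apoe at 28768, 20889, 20649 and 20650 CPM. Whether the change in Selenop differs between cycling and non-cycling macrophages was not tested.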

How the data were processed

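Gene-by-cell matrices of 4 tumor libraries were used. The file headers name cellranger 7.1.0 and the submitters' processing notes build mm10, whereas the authors' methods name another cellranger version. The deposited values are raw UMI counts per gene and barcode. The authors filtered and clustered cells further in Seurat, but no annotation was used here. Demultiplexing used a lowered tag assignment confidence. The gene and mitochondrial limits were part of the rule for members. Other cells were set by at most 4 C1q UMIs with 2 or more UMIs of Cd3e, Cd3d, Cd3g and Nkg7 (T and NK cells), 10 or more of Krt8, Krt18 and Epcam (tumor cells), 20 or more of S100a8 and S100a9 (neutrophils), or 1 of Ccr2 and 2 of Ly6c2 (monocytes). Doublet calls were not used. UMIs of members were summed per library and divided by library sums (CPM). Exact Poisson, binomial and conditional binomial intervals (95%) were computed (scipy 1.17.1, numpy 2.4.6, Python 3.11.15). Genes under a mean of 10 CPM were left out. Thinning drew 2000 UMIs per cell without replacement. The code for the calls was run on counts simulated with Poisson error and planted changes larger than the limit for a call. Such counts lack the concentration of UMIs in few cells and the spread between mice, so this step says nothing about either. Alternatives changed the filter, the fold, the scaling, the rule and the cells left out. Named genes were the 15 highest and 15 lowest by the smaller log2 ratio among those called the same way in both IACS-70654 comparisons, up to 8 likewise for anti-PD-1, and members of gene lists. Members and lists were chosen with earlier results of these data known.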

Additional observations from a re-analysis of the deposited data

Results flagged for a closer look

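Of the genes called in both IACS-70654 comparisons, 4 were called one way for IACS-70654 against vehicle and the opposite way for the combination against anti-PD-1. The difference was not tested, since each condition has 1 library. Igfbp7, an insulin-like growth factor binding protein of endothelium and fibroblasts, had log2 ratios of 1.21 and -3.48, and 1 anti-PD-1 cell held 199 of 366 UMIs. Hspb1, a small heat shock protein, had 2.79 and -1.79, and 1 IACS-70654 cell held 236 of 358 UMIs. Igkc had -3.57 and 1.12, and 1 vehicle cell held 619 of 664 UMIs. Ctla2a, a cysteine protease inhibitor, had 1.86 and -2.06, and 1 IACS-70654 cell held 326 of 421 UMIs.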

How the results depend on the processing

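No paired analysis was possible because each condition has 1 library. Thinning members to 2000 UMIs before summing called 168 genes higher for anti-PD-1 against vehicle, 48 higher and 39 lower for the combination against IACS-70654, and 11 interferon genes higher for the combination against anti-PD-1. With no filter on low genes, calls higher and lower were 502 and 863 for IACS-70654 against vehicle, 475 and 972 for the combination against anti-PD-1, 274 and 191 for anti-PD-1 against vehicle and 209 and 267 for the combination against IACS-70654, with 401 lower in both IACS-70654 comparisons. With a filter at 50 CPM they were 71 and 108, 104 and 129, 9 and 5, and 3 and 0, with 54 higher and 84 lower in both. At 2-fold they were 36 and 119, 56 and 127, 13 and 4, and 2 and 3, with 14 higher and 76 lower in both. The last 3 settings changed how many genes or what size of ratio were allowed, and the cause of the change with thinning was not tested.

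The class II median against vehicle was -0.95 with CPM averaged over cells, -1.01 after thinning, -0.91 without the Csf1r condition and -0.92 without cells holding UMIs of other types. Against anti-PD-1 it was -0.78 both with averaging and after thinning. The resident median was -1.13 with averaging and -1.08 unfiltered against vehicle, and -1.45 unfiltered against anti-PD-1. The member share was 33.0%, 60.0%, 23.1% and 52.2% without the Csf1r condition and 26.4%, 50.01%, 18.8% and 44.2% with Mki67 and Top2a at 0. At 40 or more C1q UMIs it was 51.1% with IACS-70654, 18.9% with anti-PD-1 and 44.8% with the combination. With keratins and Epcam at most 1 it was 50.6% with IACS-70654 and 44.5% with the combination. Thinned to 2000 UMIs before the rule, with the C1q limit scaled, it was 40.3% of 4352 and 36.6% of 4584 cells. Shallower cells were left out of these totals. The vehicle and anti-PD-1 shares stayed within 27.6 to 31.7% and 19.1 to 22.7% there, so the gap between the pairs was smaller. The libraries kept their order in each.

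The next 2 alternatives, which leave out the highest cells of each gene, were chosen after the data were seen. Leaving out the highest 1% of cells of each gene gave 94 genes lower for anti-PD-1 against vehicle, a class II median of -0.96, resident medians of -1.47 and -1.34 and 2 resident genes higher against anti-PD-1. Of genes called in both IACS-70654 comparisons, 117 of 120 higher and 222 of 236 lower were called again, against 67 of 98 higher and 53 of 62 lower for anti-PD-1 against vehicle and 13 of 19 higher and 7 of 11 lower for the combination against IACS-70654. It turned Col1a2 (0.84) and Hspb1 (0.43) in the combination against anti-PD-1, Cxcl13 (-0.76) and Timp1 (-1.14) in anti-PD-1 against vehicle, Ctla2a (-2.09) and Igfbp7 (-0.47) in IACS-70654 against vehicle, and Col3a1 (-0.39), Ctla2a (0.39) and Tnfaip6 (-0.61) in the combination against IACS-70654. Igkc became -0.026 in the combination against anti-PD-1. Without only the highest cell of each gene, Igkc (0.14) and Ctla2a (-0.072) turned in IACS-70654 against vehicle and Tnfaip6 (-0.10) in the combination against IACS-70654. Without cells holding UMIs of other types, Igkc was 0.39, -1.29 and 0.47 in IACS-70654 against vehicle, the combination against anti-PD-1 and anti-PD-1 against vehicle, and Hp 0.0073 in the combination against anti-PD-1, G0s2 -0.81 in anti-PD-1 against vehicle, and Igfbp7 0.092 and Tnfaip6 -0.090 in the combination against IACS-70654. With keratins at most 1, Ctla2a was -0.14 against vehicle and Hspb1 0.016 in the combination against IACS-70654. After thinning, Srebf2 was 0.14 in the combination against anti-PD-1 and Kdr -0.080 in anti-PD-1 against vehicle. The cause was not tested beyond the cells left out. Scrublet marked 15, 2, 5 and 1 kept cells, too few to work as a doublet caller.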
